A study of Rattus norvegicus with 15 samples.

Results

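Nipsnap1, Prdx3, Gria3, Adam11, Emid1, Slit3, Bbx, Gtf3c1 and Fancb are 9 genes whose RNA, by at least 1 probe set each, was lower in the rat mammary gland after a pregnancy and after a course of hormones than in glands of unexposed rats. They are 9 of the 14233 genes named on the array, and 20 of the 31042 probe sets measured carry them. The genes were chosen by the measured values of these same arrays, since in earlier results their mean levels after both exposures lay below control. Their differences from control are therefore given as a description, without a test. In the authors' deposited table, each of the 9 genes had at least 1 probe set with an adjusted p under 0.05 for the mean of both exposures against control. The smallest adjusted p of a gene in the authors' deposited table ran from 0.0205 to 0.0326. Emid1 and Fancb stand in the deposited table under older names and were found by their Entrez identifiers.

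The 15 donors were female Lewis rats, virgin and 3 months old when they were assigned at random to groups of 5, and RNA was taken from their left inguinal mammary glands. Rats of the pregnancy group carried a litter to term over 21 to 23 days, with sham capsules of cellulose under the skin, and lost their pups 4 to 6 hours after delivery, before any suckling. In the hormone group 2 capsules held 100 µg ethynyl estradiol, a synthetic estrogen, and 30 mg of the progestin spelled megesterol acetate in the labels, and stayed in place for 21 days. Control rats were neither mated nor given hormones and carried sham capsules for 21 days. A rest of about 49 days followed capsule removal in all 3 groups, and tissue was collected in metestrus, so the arrays show the gland long after either exposure. Each rat gave 1 Affymetrix array. Levels are log2 values made by the authors with RMA, so that 1 unit is a doubling, and a detection call of present, marginal or absent accompanies each value.

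The 9 genes have little in common by known function. Nipsnap1 and Prdx3 encode mitochondrial proteins, Gria3 and Adam11 encode membrane proteins studied mostly in the brain, Emid1 and Slit3 encode secreted proteins, and Bbx, Gtf3c1 and Fancb encode nuclear proteins. Prdx3 and Gtf3c1 lie on chromosome 1, Adam11 and Slit3 on 10, Bbx on 11, Nipsnap1 and Emid1 on 14, and Gria3 and Fancb on X. A full-term pregnancy early in life is known to lower the later risk of mammary cancer in rats, and short courses of an estrogen with a progestin mimic this. In the mouse mammary gland the SLIT proteins act through ROBO1 to restrain branching of the ducts, which makes Slit3 the member with the most direct link to this tissue.

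All 10 luminal epithelial markers and all 9 myoepithelial markers measured were called present on every array, as were all 11 adipocyte markers. Of the 15 arrays, 4 were rich in lymphoid RNA, with a mean level of 17 lymph node markers 1.69 to 2.12 log2 units above the mean of all arrays. These were pregnancy replicate 3 and control replicates 1, 4 and 5. The list ranged from -1.02 to 1.69 in the pregnancy group, from -1.27 to -0.17 in the hormone group and from -1.19 to 2.12 in the control group, with group means of 0.10, -0.89 and 0.79. A further 3 arrays, pregnancy replicates 7 and 9 and hormone replicate 4, were rich in skeletal muscle markers, at 1.97 to 3.85 above the mean. The adipocyte list averaged 0.12 in pregnancy glands, 0.15 in hormone glands and -0.27 in control glands, the macrophage list 0.02, 0.12 and -0.14, and the proliferation list 0.08, -0.22 and 0.14. In whole glands, fewer cells of a type and less RNA per cell cannot be told apart. The part of tissue content in the values below was not tested, but values without the lymphoid-rich arrays are given beside each gene.

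Nipsnap1 and Emid1 lie close to each other on chromosome 14, and the stretches around their starts are shown because both genes were low after both exposures. Each runs from 250 bases before to 50 bases after the start, 5′ to 3′ on the gene's strand, as RefSeq gives it on the GRCr8 assembly, at chr14:83957464-83957763 on the plus strand for Nipsnap1 and at chr14:84257530-84257829 on the minus strand for Emid1. Capitals mark the matches to 5 motifs searched on both strands.
Nipsnap1: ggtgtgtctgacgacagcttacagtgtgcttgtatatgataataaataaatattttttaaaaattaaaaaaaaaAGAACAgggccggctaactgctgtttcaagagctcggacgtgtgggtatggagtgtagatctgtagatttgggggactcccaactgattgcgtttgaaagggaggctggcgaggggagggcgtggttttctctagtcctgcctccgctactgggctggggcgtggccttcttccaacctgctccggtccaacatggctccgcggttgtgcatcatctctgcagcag
Emid1: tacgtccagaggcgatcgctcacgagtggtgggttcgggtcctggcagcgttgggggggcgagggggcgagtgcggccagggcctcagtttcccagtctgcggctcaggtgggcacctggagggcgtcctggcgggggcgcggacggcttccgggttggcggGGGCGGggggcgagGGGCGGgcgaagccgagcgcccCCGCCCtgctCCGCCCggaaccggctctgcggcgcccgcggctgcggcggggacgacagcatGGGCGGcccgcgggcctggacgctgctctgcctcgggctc
The motifs were GGTCA or TGACC (1 arm of an estrogen receptor element), AGAACA or TGTTCT (1 arm of a progesterone receptor element), CCAAT or ATTGG, the GC box GGGCGG or CCGCCC, and TATAAA or TTTATA. The Nipsnap1 window held a single match, AGAACA beginning 176 bases before the start. The Emid1 window held 5 GC boxes and no other match. Among 33469 rat promoters of this length, AGAACA occurred in 20.7% and the GC box in 33.1%. The Emid1 window held 39 CpG pairs and the Nipsnap1 window 12, against a median of 7 over all promoters. Windows were found for 6 of the 9 genes. GGTCA lay in 3 of the 6 (Gtf3c1, Prdx3 and Fancb), and it occurred in 40.5% of all promoters. A match is a description of letters and not of a binding site.

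Nipsnap1 encodes a mitochondrial protein which, in human cells, recruits autophagy receptors to damaged mitochondria. Both of its probe sets were lower after both exposures. Probe set 1388537_at read 8.37, 8.35, 8.55, 8.42 and 8.37 in pregnancy glands, 8.48, 8.42, 8.36, 8.17 and 8.42 in hormone glands, and 8.86, 8.73, 8.92, 8.79 and 8.86 in control glands. No exposed gland reached the lowest control gland. The level differed from control by -0.42 (SE 0.06) after pregnancy, a ratio of 0.749, and by -0.46 (SE 0.06) after hormones, a ratio of 0.728. Probe set 1390454_at read 8.30, 8.07, 8.35, 8.20 and 8.18 in pregnancy glands, 8.04, 8.11, 8.13, 7.99 and 8.001 in hormone glands, and 8.48, 8.34, 8.62, 8.68 and 8.58 in control glands. Here the hormone glands were apart from the controls, while pregnancy replicate 3, at 8.35, lay just above control replicate 2, at 8.34. The differences from control were -0.32 (SE 0.07) after pregnancy and -0.48 (SE 0.07) after hormones. Without the lymphoid-rich arrays 1388537_at stood at -0.42 after pregnancy and -0.42 after hormones, close to the values from all arrays, and 1390454_at at -0.27 and -0.40.

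Prdx3 encodes a mitochondrial peroxidase that reduces hydrogen peroxide with electrons from thioredoxin. Its probe sets did not move together, and the one with the strongest signal went against the description of the gene as lower. Probe set 1390950_at read 7.06, 6.99, 7.10, 7.12 and 7.05 in pregnancy glands, 7.07, 7.08, 6.92, 7.05 and 6.80 in hormone glands, and 7.62, 7.26, 7.53, 7.48 and 7.26 in control glands. Every exposed gland lay below every control gland. Probe set 1367591_at, by contrast, read 11.24, 11.42, 11.27, 11.47 and 11.27 in pregnancy glands, 11.47, 11.34, 11.34, 11.30 and 11.38 in hormone glands, and 11.23, 11.36, 11.01, 11.04 and 11.31 in control glands. These groups overlapped, with the 2 lowest values in control replicates 4 and 5. The log2 differences from control were -0.37 (SE 0.08) after pregnancy and -0.45 (SE 0.08) after hormones for 1390950_at, but 0.14 (SE 0.08) and 0.18 (SE 0.08) for 1367591_at. The third probe set, 1397269_at, differed by -0.04 (SE 0.10) after pregnancy and by -0.21 (SE 0.10) after hormones, with overlapping groups. Both results were smaller without the 4 lymphoid-rich arrays, which leaves 2 control arrays. Then 1390950_at differed by -0.21 after pregnancy and -0.28 after hormones, and 1367591_at by 0.01 and 0.03. Whether lymphoid content or the choice of control arrays moved them was not tested. Of the 3 Prdx3 probe sets, 1 thus placed all exposed glands below all controls, and the gene as a whole cannot be called lower from these arrays.

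**Figure D1:**
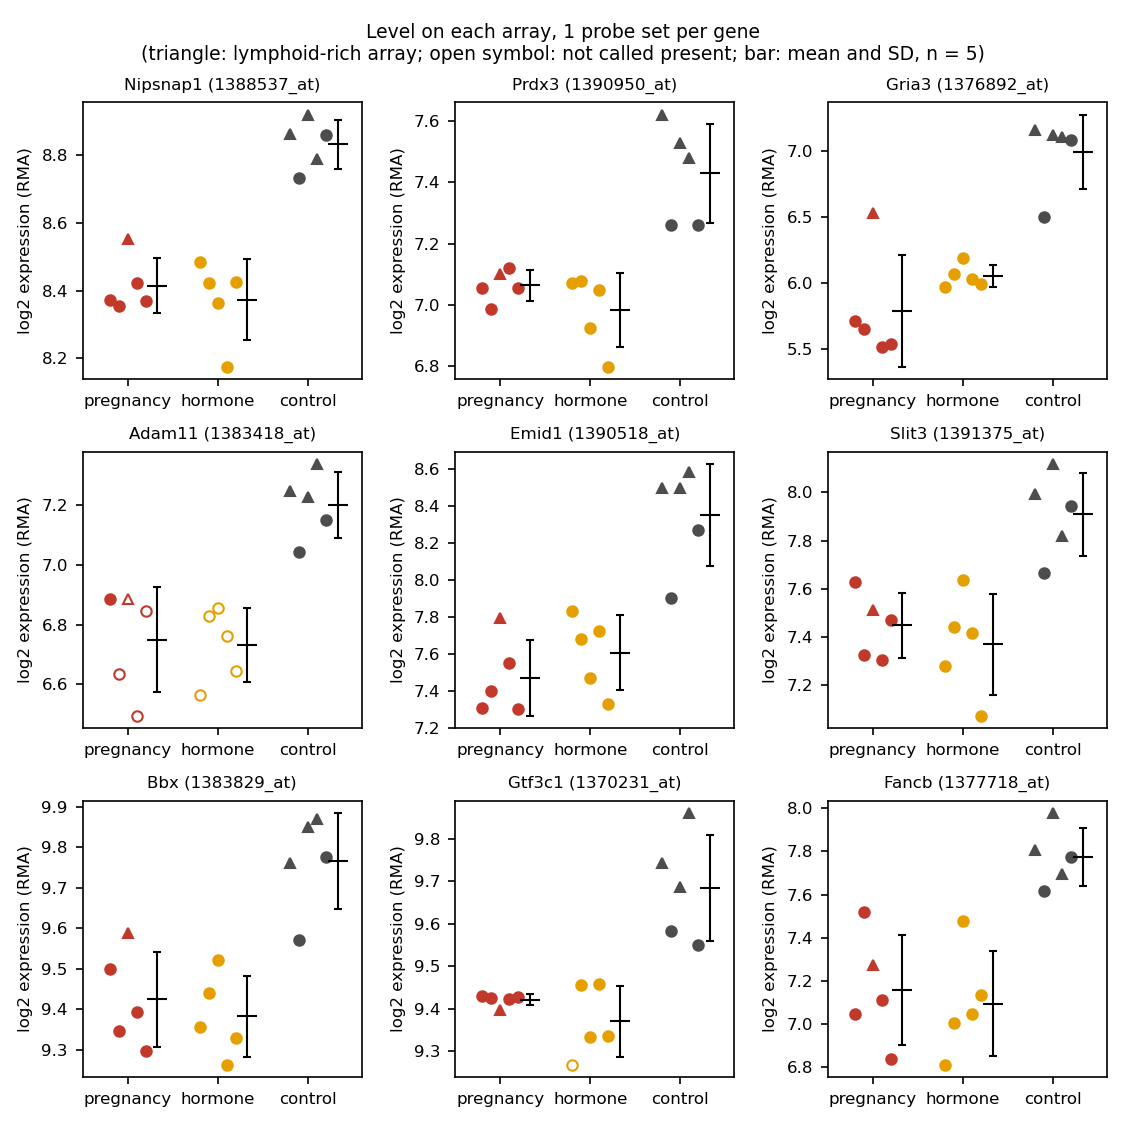
RMA log2 level of 1 probe set of each of the 9 genes, picked among those called lower for the mean of both exposures, on each of the 15 arrays, with pregnancy on the left, hormone in the middle and control on the right; bars give the mean and SD of 5 arrays, triangles are lymphoid-rich arrays and open symbols arrays without a present call. In 7 of the 9 panels every exposed gland lies below every control gland (background 0.296% of all probe sets), while in the probe sets of Prdx3 and Slit3 with the strongest signal, not drawn here, the groups overlap; in the Gria3 and Bbx panels pregnancy replicate 3 reaches the lowest control.

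Gria3, on chromosome X, encodes a subunit of the AMPA-type glutamate receptor, an ion channel that carries fast excitatory signals between neurons. It had the largest differences from control among the 20 probe sets. Of its 2 probe sets, the one called present on all 15 arrays read 5.71, 5.65, 6.53, 5.51 and 5.54 in pregnancy glands, 5.97, 6.07, 6.19, 6.03 and 5.99 in hormone glands, and 7.16, 6.50, 7.12, 7.11 and 7.08 in control glands. All hormone glands were below all controls, while the lymphoid-rich pregnancy replicate 3, at 6.53, lay just above control replicate 2, at 6.50. The mean level was 5.79 ± 0.42 in pregnancy glands, 6.05 ± 0.09 in hormone glands and 6.99 ± 0.28 in control glands (SD, n = 5 each). This gave -1.20 (SE 0.17) after pregnancy, or 0.434 of the control level, and -0.94 (SE 0.17) after hormones, or 0.521 of it. Without the lymphoid-rich arrays the differences were -1.19 and -0.74, and without the muscle-rich arrays they were -1.03 and -0.94. The other probe set, 1368691_at, had no present call on any array, so no size is given for it in the text.

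The mean level of the neuronal markers ranged from -0.11 to 0.11 in pregnancy glands, from -0.07 to 0.06 in hormone glands and from -0.04 to 0.17 in control glands, relative to the mean of all arrays, with group means of -0.02, -0.00 and 0.02. Of 10 neuronal markers 5 had no present call on any array (Nefl, Nefm, Nefh, Uchl1 and Rbfox3), and only Stmn2 was present on all 15. The 9 Schwann cell markers ranged from -0.19 to 0.16 in pregnancy glands, from -0.11 to 0.25 in hormone glands and from -0.27 to 0.27 in control glands. The part of nerve content in the Gria3 values was not tested.

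Adam11 encodes a membrane protein of the ADAM family that lacks the residues needed for protease activity and is best known from synapses. It was called present on all 5 control arrays, but on 1 of 5 pregnancy arrays and on 0 of 5 hormone arrays. Its only probe set, 1383418_at, read 6.89, 6.63, 6.89, 6.50 and 6.85 in pregnancy glands, 6.56, 6.83, 6.85, 6.76 and 6.64 in hormone glands, and 7.25, 7.04, 7.23, 7.34 and 7.15 in control glands. The exposed glands were all below the controls. The estimated ratio to control was 0.732 after pregnancy (log2 difference -0.45, SE 0.09) and 0.722 after hormones (-0.47, SE 0.09). As the hormone level was not told from background, and the pregnancy level on 1 array only, both ratios are estimates and no bounds. The differences were -0.38 and -0.37 without the lymphoid-rich arrays.

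Emid1 encodes a secreted protein with an EMI domain and collagen-like repeats. Probe set 1390518_at, its only one, read 7.31, 7.40, 7.80, 7.55 and 7.31 in pregnancy glands, 7.84, 7.68, 7.47, 7.72 and 7.33 in hormone glands, and 8.50, 7.90, 8.50, 8.58 and 8.27 in control glands. No exposed gland reached a control, although hormone replicate 1, at 7.84, came near control replicate 2, at 7.90. The level differed from control by -0.88 (SE 0.14) after pregnancy, a ratio of 0.544, and by -0.74 (SE 0.14) after hormones, a ratio of 0.598. Without the lymphoid-rich arrays these values were -0.69 and -0.48, and the hormone difference then was smaller by over 1.5 times. The low level was not shared by all genes of this stretch of chromosome 14. Of the 7 protein-coding genes between Nipsnap1 and Emid1, all on the array, Gas2l1 differed from control by 0.52 after pregnancy and 0.27 after hormones and Rasl10a by 0.24 and 0.22, whereas Ewsr1 differed by -0.12 and -0.25. Thoc5, Ap1b1 and Rhbdd3 differed by -0.12 to 0.04, and Nefh had no present call.

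Slit3 encodes a secreted ligand of the ROBO receptors. The array carries 6 probe sets for it, more than for any other of the 9 genes, and they gave a graded picture. Probe set 1391375_at read 7.63, 7.33, 7.51, 7.30 and 7.47 in pregnancy glands, 7.28, 7.44, 7.64, 7.41 and 7.07 in hormone glands, and 7.99, 7.67, 8.12, 7.82 and 7.94 in control glands. Here all exposed glands lay below all controls. The log2 differences were -0.46 (SE 0.11) after pregnancy, a ratio of 0.727, and -0.54 (SE 0.11) after hormones, a ratio of 0.688. In 1368920_at the groups overlapped fully, with 10.33, 10.46, 10.21, 10.34 and 10.16 in pregnancy glands, 10.03, 10.44, 10.13, 10.38 and 10.26 in hormone glands, and 10.30, 10.50, 9.97, 10.47 and 10.53 in control glands. That probe set, the one with the strongest signal, differed from control by -0.05 (SE 0.11) and -0.11 (SE 0.11).

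A further 3 Slit3 probe sets gave differences between these. After pregnancy 1380222_at differed from control by -0.16 (SE 0.10), 1381218_at by -0.22 (SE 0.12) and 1398071_at by -0.37 (SE 0.12). After hormones the same probe sets differed by -0.31, -0.36 and -0.43, and in all of them the groups overlapped. Detection of 1398071_at thinned out with exposure, with present calls on 1 of 5 pregnancy arrays, 2 of 5 hormone arrays and 5 of 5 control arrays. The sixth, 1373318_at, had no present call. Without the lymphoid-rich arrays 1391375_at stood at -0.37 after pregnancy and -0.44 after hormones and 1368920_at at -0.19 and -0.27, while 1380222_at was at -0.01 and -0.17.

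**Figure D2:**
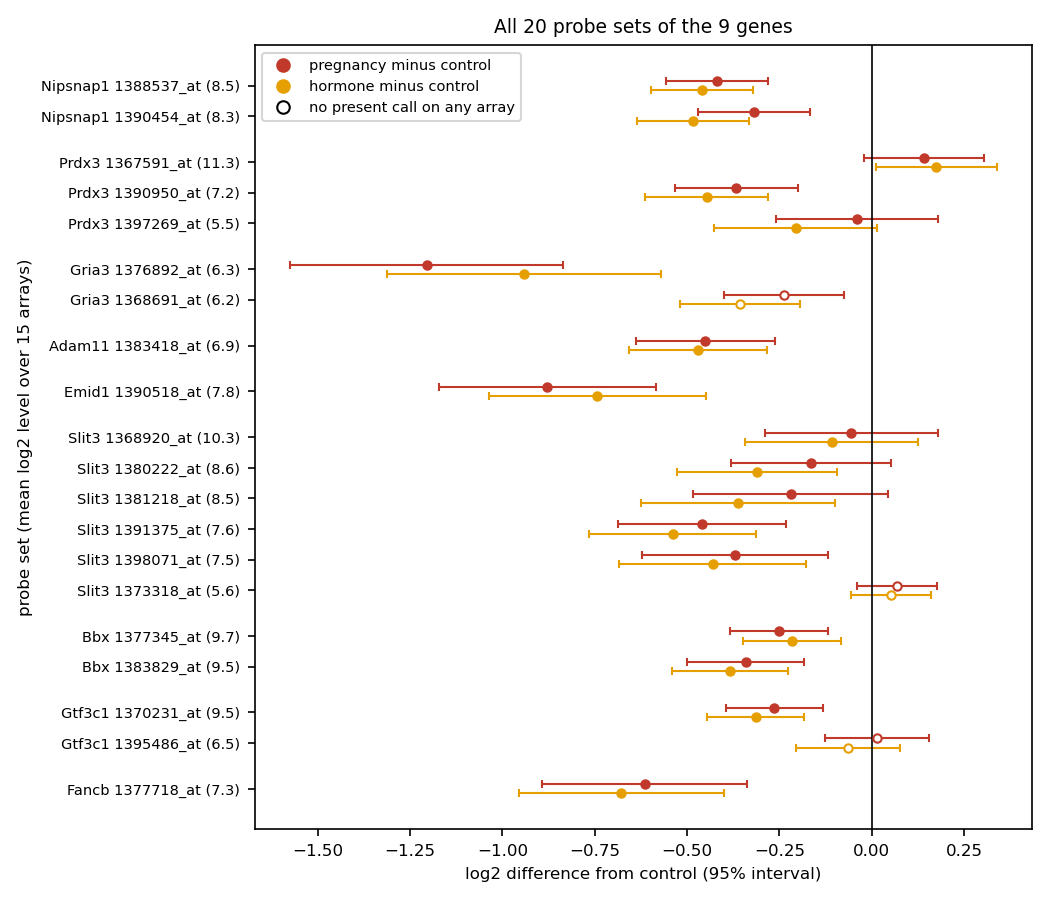
Log2 difference from control, with its 95% interval from the limma fit over 15 arrays, for each of the 20 probe sets of the 9 genes (pregnancy red and drawn above, hormone orange), on the horizontal axis; the figure beside each name is the mean log2 level over 15 arrays, and open points had no present call. Of the 20 points for each exposure, open points included, 17 lie below 0 after pregnancy and 18 after hormones. Both 1367591_at of Prdx3 and 1373318_at of Slit3, an open point, lie above 0 after both exposures.

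Bbx encodes a DNA-binding protein with an HMG box. Its probe sets gave the same picture. Probe set 1383829_at read 9.50, 9.35, 9.59, 9.39 and 9.30 in pregnancy glands, 9.36, 9.44, 9.52, 9.26 and 9.33 in hormone glands, and 9.76, 9.57, 9.85, 9.87 and 9.78 in control glands. Hormone glands were all below the controls, whereas pregnancy replicate 3, at 9.59, lay above control replicate 2, at 9.57. The differences were -0.34 (SE 0.07) after pregnancy, a ratio of 0.789, and -0.38 (SE 0.07) after hormones, a ratio of 0.767. The second probe set, 1377345_at, differed from control by -0.25 (SE 0.06) and -0.22 (SE 0.06). Its values ran from 9.47 to 9.72 in pregnancy glands, from 9.53 to 9.70 in hormone glands and from 9.71 to 9.90 in control glands. With the lymphoid-rich arrays left out, 1383829_at stood at -0.29 after either exposure, and 1377345_at at -0.23 after pregnancy and -0.17 after hormones.

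Gtf3c1 encodes the largest subunit of TFIIIC, the factor that binds the internal promoters of tRNA genes and recruits RNA polymerase III. Probe set 1370231_at read 9.43, 9.43, 9.40, 9.42 and 9.43 in pregnancy glands, 9.27, 9.46, 9.33, 9.46 and 9.34 in hormone glands, and 9.74, 9.58, 9.69, 9.86 and 9.55 in control glands. Every exposed gland was below every control, and the pregnancy glands were tightly grouped, with an SD of 0.013. The differences were small, -0.26 (SE 0.06) after pregnancy and -0.31 (SE 0.06) after hormones, or 0.833 and 0.804 of control. They were -0.14 and -0.20 without the lymphoid-rich arrays. This probe set was called present on 14 of 15 arrays, and the other, 1395486_at, on none.

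Fancb, also on chromosome X, encodes a subunit of the Fanconi anaemia core complex, which tags FANCD2 with ubiquitin when DNA strands are crosslinked. Its only probe set, 1377718_at, read 7.05, 7.52, 7.27, 7.11 and 6.84 in pregnancy glands, 6.81, 7.01, 7.48, 7.05 and 7.13 in hormone glands, and 7.81, 7.62, 7.98, 7.70 and 7.77 in control glands. No exposed gland reached the lowest control, although pregnancy replicate 2 and hormone replicate 3 came close to it. The level differed from control by -0.62 (SE 0.13) after pregnancy, a ratio of 0.653, and by -0.68 (SE 0.13) after hormones, a ratio of 0.625. Without the lymphoid-rich arrays the differences were -0.57 and -0.60, and without the muscle-rich ones -0.49 and -0.67.

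Over the 20 probe sets, 17 lay below 0 after pregnancy, where 45.3% of all probe sets did, and 18 after hormones, where 42% did. Every pregnancy array lay below every control array in 7 probe sets of 7 genes (background 1.74% of all probe sets), and every hormone array in 12 probe sets that cover all 9 genes (background 1.31%). The 12 include Gria3 1368691_at, which had no present call on any array and is also counted in the 17 and the 18. Gtf3c1 1395486_at, which had no present call either, is counted in the 18. In 7 probe sets of 7 genes both exposed groups lay below all controls (background 0.296%). At an adjusted p under 0.05 in limma, 3 member probe sets were called lower after pregnancy (background 0.0805%), 2 after hormones (background 0.0193%) and 10, from all 9 genes, for the mean of both (background 0.126%). These counts describe how the genes were chosen and carry no further reading. The background rests on few arrays: 39 probe sets were called lower for the mean of both exposures, 2224 without control replicate 2 and 0 without control replicate 4. The comparisons of each exposure with control share the same 5 control arrays.

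The median difference over 1 probe set per gene, the one with the strongest signal (for Gria3, the one called present), was -0.42 after pregnancy and -0.46 after hormones, against 0.02 and 0.03 over all probe sets. Leaving out any single array changed none of the differences of the 10 called probe sets by as much as 1.5 times. This is a description, since they were called on these same arrays. Without all the lymphoid-rich arrays, the differences of Prdx3 1390950_at, Gtf3c1 1370231_at and, after hormones, Emid1 changed by more than that. Among the 11 arrays that were not lymphoid-rich (4 pregnancy, 5 hormone and 2 control), all exposed glands lay below both controls in each of the 10 called probe sets. The same held for 1029 of all probe sets, or 3.31%. For the called probe sets this outcome was fixed beforehand. In 7 of them all exposed glands lay below all controls with every array kept, so leaving arrays out could not change it. In the rest, of Nipsnap1, Gria3 and Bbx, the groups overlapped only through pregnancy replicate 3, one of the arrays left out. The count is therefore a description and cannot show whether lymphoid content matters.

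**Figure D3:**
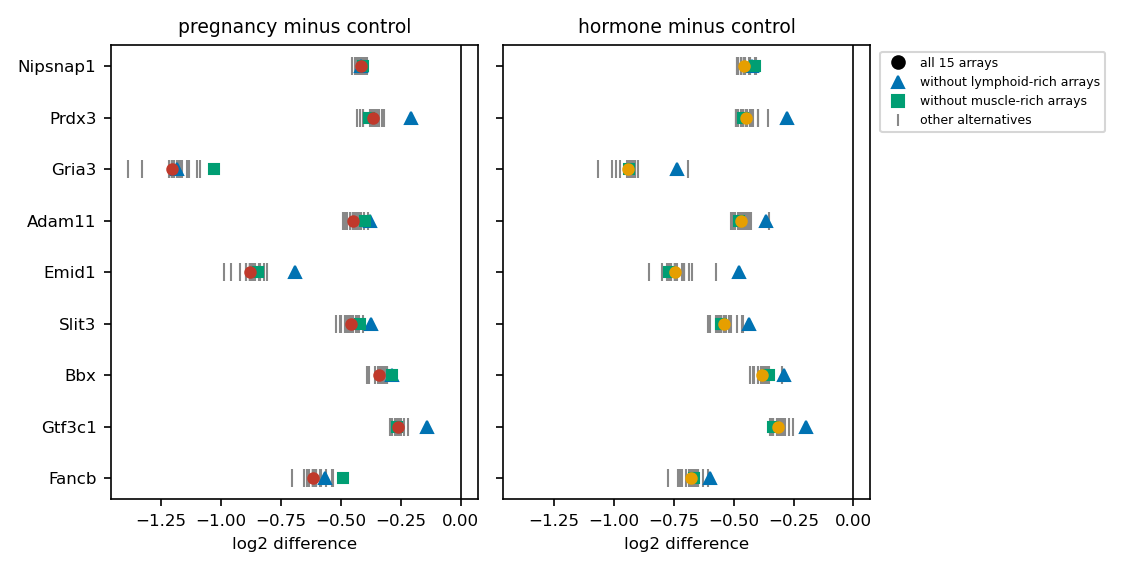
Log2 difference from control of the called probe set of each gene (1388537_at for Nipsnap1), after pregnancy (left panel) and after hormones (right panel), on the horizontal axis: circles are from all 15 arrays, triangles without the 4 lymphoid-rich arrays, squares without the 3 muscle-rich arrays, and ticks are the other ways of processing. All points of these probe sets, which were chosen as low, lie below 0, whereas 1367591_at of Prdx3, not drawn, was above 0; the triangles of Prdx3, Gtf3c1 and, after hormones, Emid1 lie farthest from their circles in proportion.

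Pregnancy and hormone glands were also set against each other. The genes were chosen for low levels in both groups, which limits how far apart the groups can lie, so these differences too are a description, and their counts carry no further reading. At an adjusted p under 0.05 (limma, Benjamini-Hochberg over all probe sets) 0 of the 20 member probe sets differed (background 0.00322%), and 1 did at an unadjusted p under 0.05, where 9.96% of all probe sets did. In 0 of the 20 were the groups apart, against 2.81% of all probe sets. The 1 was Nipsnap1 1390454_at, higher in pregnancy glands than in hormone glands by 0.17 (SE 0.07), with a 95% interval of 0.01 to 0.32. For Gria3 the difference was -0.26, with an interval from -0.63 to 0.11. Emid1 had a difference of -0.14 (interval -0.43 to 0.16) and Fancb of 0.06 (interval -0.22 to 0.34). The narrowest intervals among the 10 called probe sets were those of Gtf3c1 1370231_at, from -0.08 to 0.18, and Nipsnap1 1388537_at, from -0.10 to 0.18. A p above the threshold does not show that both exposures left the same level.

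Probe sets of a gene share the same RNA and arrays, so they are no replicates. How they vary together within groups is given below. Probe sets of different genes can vary together on these arrays too, so such an r cannot show that they read the same transcript. With group means removed, the Nipsnap1 probe sets had a Pearson r of 0.48 and those of Bbx 0.66 over 15 arrays, as a description, and 0.43 and 0.63 over the 11 arrays that were not lymphoid-rich. A set of 4 Slit3 probe sets (1380222_at, 1381218_at, 1391375_at and 1398071_at) moved together, with r from 0.53 to 0.89 in pairs. The other, 1368920_at, did not follow them, with r from -0.39 to -0.02, although over the 11 arrays that were not lymphoid-rich its r with them ran from -0.06 to 0.33 (0.52 to 0.91 among the 4). For Prdx3, 1367591_at and 1390950_at had an r of -0.39, which was 0.07 over those 11 arrays. Which of the disagreeing probe sets follows the main transcript was not tested, since the probes' sequences were not used here.

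**Figure D4:**
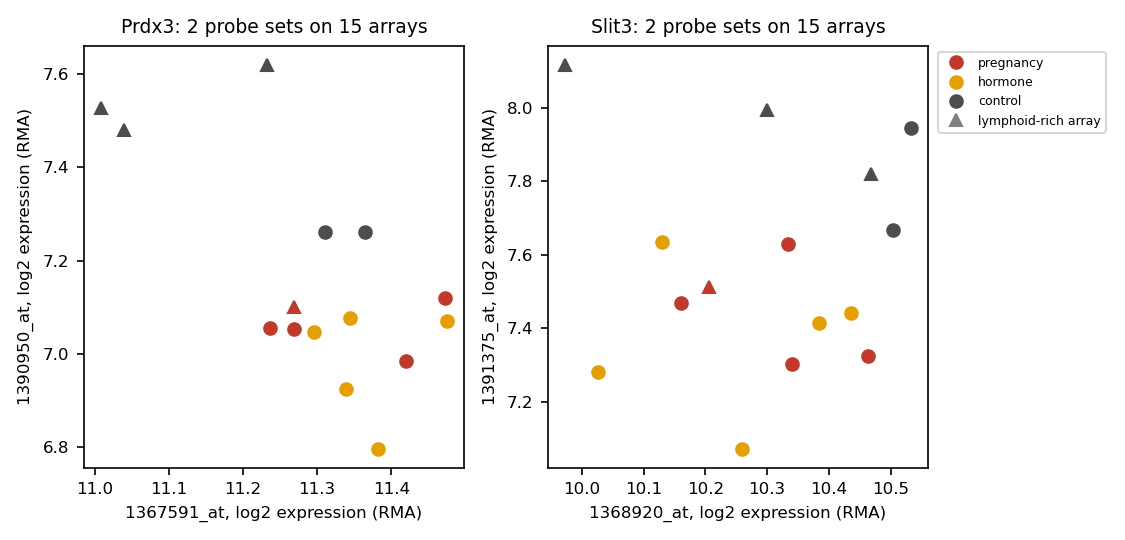
Log2 level on each of the 15 arrays for a pair of probe sets of Prdx3 (left) and of Slit3 (right), with 1367591_at and 1368920_at on the horizontal axes and 1390950_at and 1391375_at on the vertical axes; pregnancy is red, hormone orange, control grey, and triangles are lymphoid-rich arrays. On the vertical axes the control arrays lie above all exposed arrays; on the horizontal axes the groups overlap, and control replicates 4 and 5 have the lowest Prdx3 levels.

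The genes most like each member over the 15 arrays were found among 10850 measured genes (10851 for Adam11), by Pearson r of log2 levels, with all arrays sharing the same normalisation and tissue content. This r contains the low exposed levels for which the members were chosen. Rtf1 was most like Gria3 (r = 0.96) and was also like Bbx (0.94), and Emid1 came next for Gria3 (0.93). Plekhg2 and Atrip were most like Emid1 (both 0.94), Rflnb and Mbtd1 most like Fancb (0.94 and 0.93), Add1 and Foxp1 most like Adam11 (0.93 and 0.92), Edc4 and Fig4 most like Gtf3c1 (0.92 and 0.91), and Katna1 and Ncl most like Nipsnap1 (both 0.89). Zfp84 led for Bbx (0.95). The probe set 1367591_at of Prdx3 was most like Mipep (0.98) and mrpl11 (0.96), and 1368920_at of Slit3 most like Adamts1 (0.89) and Dpysl3 (0.86). With group means removed, over the 11 arrays that were not lymphoid-rich, r was 0.27 for Emid1 with Gria3, 0.37 for Ncl with Nipsnap1 and 0.50 for Fig4 with Gtf3c1, and 0.63 to 0.95 for the other pairs. Between members, r with group means removed was taken over all 15 arrays, the lymphoid-rich ones included. Each gene stood by its probe set with the strongest signal (for Gria3, the one called present). These were 1367591_at for Prdx3, 1368920_at for Slit3 and 1377345_at for Bbx, which are not among the 10 called. The 36 pairs had r from -0.80 (Adam11 with Prdx3) to 0.70, with a median of 0.10.

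Genes that work with the members were read from 9 lists with 171 other genes on the array. At an adjusted p under 0.05 in limma 0 of them passed in either comparison with control, while 45 had an unadjusted p under 0.05 after pregnancy (23 lower, 22 higher) and 44 after hormones (22 lower, 22 higher). These shares, 26.3% and 25.7%, compare with 21.9% and 20.7% of all probe sets. The counts below 0 that follow stand beside 45.3% of all probe sets after pregnancy and 42% after hormones. With arrays weighted by quality 8 passed after pregnancy and 8 after hormones, and without control replicate 2 it was 14 and 14.

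Among the RNA polymerase III genes, 19 of 26 lay below 0 after pregnancy and 20 of 26 after hormones, with medians of -0.10 and -0.07 and 0 past the threshold. Their medians without the lymphoid-rich arrays were -0.11 and -0.04. Gtf3c4, another TFIIIC subunit, had the smallest p of this list for the mean of both exposures, at 9.38 ± 0.06 in pregnancy glands, 9.40 ± 0.03 in hormone glands and 9.65 ± 0.14 in control glands (SD, n = 5 each, limma adjusted p = 0.0546). Polr3e, a polymerase III subunit, differed by -0.21 after pregnancy and -0.29 after hormones. The direction was the same as for Gtf3c1.

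The peroxide and thioredoxin genes lay on the other side. Only 5 of 25 were below 0 after pregnancy and 6 of 25 after hormones, with medians of 0.12 and 0.16 and 0 past the threshold. Their medians without the lymphoid-rich arrays were 0.12 and 0.06. Srxn1, which repairs overoxidised peroxiredoxins, differed by 0.45 (SE 0.12) after pregnancy and 0.34 (SE 0.12) after hormones. Prdx5, another peroxiredoxin, differed by 0.38 (SE 0.09) and 0.19 (SE 0.09). These values have the sign of Prdx3 probe set 1367591_at and not that of 1390950_at. The sign of other genes cannot show which probe set follows the Prdx3 transcript. Without the lymphoid-rich arrays 1367591_at differed from control by only 0.01 after pregnancy and 0.03 after hormones.

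In the mitophagy list 8 of 19 genes were below 0 after pregnancy and 5 of 19 after hormones. Its Nipsnap2, the closest relative of Nipsnap1, differed from control by 0.34 (SE 0.10) and 0.25 (SE 0.10), opposite in sign to Nipsnap1, and Pink1, the kinase that marks damaged mitochondria, by 0.35 and 0.30. Of the Fanconi genes 10 of 15 were below 0 after pregnancy and 11 of 15 after hormones, with Faap20, a core complex partner, at -0.29 and -0.17. The HMG box list had 15 of 20 and 13 of 20 below 0, and its Cic differed by -0.44 (SE 0.10) and -0.36 (SE 0.10).

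For the surface and secreted members the lists were mixed. The ADAM list had 10 of 13 genes below 0 after pregnancy but 6 of 13 after hormones, and Adam10, the protease that sheds many membrane proteins, differed by -0.38 (SE 0.10) and -0.31 (SE 0.10). In the glutamate receptor list 11 of 26 genes had any present call, 10 of 26 were below 0 after pregnancy and 8 of 26 after hormones, and Grip1, a scaffold that binds AMPA receptor subunits, differed by -0.35 and -0.33. Of the SLIT and ROBO genes 10 of 17 and 8 of 17 were below 0, with Enah, an actin regulator, at -0.22 and -0.41. In the EMI domain list 5 of 10 genes were below 0 after pregnancy and 3 of 10 after hormones, and Mmrn2 differed by 0.06 and 0.37. Col26a1, a relative of Emid1 with an EMI domain, was present on 0 of 5 pregnancy, 0 of 5 hormone and 5 of 5 control arrays. The exposed levels of Col26a1 were thus not told from background. Its differences of -0.25 and -0.31 are estimates and no bounds.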

How the data were processed

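Per the labels' protocols, total RNA was extracted with Trizol and 80 ng was amplified and biotinylated with NuGEN Ovation V2, for 1 array per rat. The values that the authors deposited are RMA log2 levels, with a MAS5 detection p-value and call for each. GCOS, RMA, MAS5 and affy are named, without versions, per the submitters' processing notes. The authors' own table of log2 differences and p-values was deposited with them. The log2 values of both deposited tables were equal (largest difference 0). A set of 15 columns for 5 arrays that match no labelled sample was not used. Of 31099 probe sets, 57 controls were left out. The share called present was 65.3 to 68.4% per array, and the number of arrays limits the precision.

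Groups came from the labels. In limma 3.58.1 (R 4.3.3), 1 mean per group was estimated from 15 arrays for 31042 probe sets, with empirical Bayes moderation, two-sided tests and Benjamini-Hochberg adjustment at 0.05. Errors are moderated standard errors. The fit was run on simulated arrays with known changes and independent noise for each probe set. Tissue content shared by many probe sets was not simulated, so this checks the calculation and not the calls on these arrays. Tables were made in Python 3.11.15 (pandas 2.3.3, numpy 2.4.6). No size is given for a probe set without any present call.

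The members and the gene lists were chosen with earlier results of these data known. All members and their probe sets are named. In each partner list, as 0 genes passed, the 2 with the smallest p for the mean of both exposures against control are named, unless never called present (Mmrn2, named by the same rule, differed from control by 0.06 after pregnancy and by 0.37 after hormones); 1 further gene that the rule names is not reported here. Likeness used the 2 highest r among genes present on at least 8 arrays. An array was called rich in a tissue where its marker list lay over 0.8 log2 units above the mean of all arrays; the alternatives that leave these arrays out were chosen after seeing the data. The others were array centring, array weights, marker lists as covariates, at least 5 present calls, an intensity trend, only the groups compared, the replicate number as a block and leaving out each array. Promoter windows and chromosomes are from RefSeq (GRCr8); for the array annotation no build is given in the sources used here.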

Additional observations from a re-analysis of the deposited data

Results flagged for a closer look

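In each group of 5 arrays the highest and lowest value of every member probe set was checked for a gap to its neighbour that is large against the whole range (Dixon's test, critical value 0.71). Of 60 groups 4 were flagged, and chance flags about 1 in 20. Pregnancy replicate 3, a lymphoid-rich array, stood high for the Gria3 probe set called present, at 6.531 where the next value was 5.71. Control replicate 2 stood low for the same probe set, at 6.497 where the next value was 7.08. These are the values through which the pregnancy and control groups of Gria3 overlap. For Gtf3c1 1370231_at pregnancy replicate 3 was lowest, at 9.398 where the next value was 9.424, a gap that is large only because the group is tight. Hormone replicate 3 was low for Gtf3c1 1395486_at, at 6.227, a probe set called absent there.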

How the results depend on the processing

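All 10 called member probe sets kept a difference below 0 from control under all 25 alternatives for either exposure. They were chosen as low on the same arrays that the alternatives use again, so the kept sign is a description and no support. Their calls for the mean of both exposures were not kept under every alternative. The highest adjusted p (limma) of a called probe set ran from 0.162 for Nipsnap1 1388537_at to 0.422 for Gtf3c1 1370231_at. The median of the 9 genes stayed below 0 throughout; it was -0.42 after pregnancy and -0.46 after hormones, and moved by more than the spread between replicates only after hormones, to -0.35 with lymph node markers as covariate and to -0.36 without the lymphoid-rich arrays. Pregnancy and hormone glands differed in 0 member probe sets under every alternative.

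How many of all probe sets passed depended strongly on the processing. With all arrays, 25 were lower after pregnancy, 6 after hormones and 39 for the mean of both, and 1 differed between pregnancy and hormone. Array weights gave 656, 1077, 1910 and 4, the lymph node covariate 160, 1, 11 and 0, and the muscle covariate 8, 3, 2 and 1. Without the lymphoid-rich arrays it was 4, 0, 0 and 4, and without the muscle-rich arrays 0, 0, 0 and 0. Centring on array medians gave 10 after pregnancy; an intensity trend gave 12 after pregnancy and 14 for the mean of both. With only the groups compared the counts were 1 after pregnancy, 0 after hormones and 6 between pregnancy and hormone. Leaving out 1 array at a time gave 0 to 860 after pregnancy, 0 to 1339 after hormones, 0 to 2224 for the mean of both and 0 to 9 between pregnancy and hormone. The 3 highest of these came without control replicate 2, and without control replicate 4 those counts were 0; without control replicate 6 the mean of both gave 793 and without hormone replicate 3 it gave 182. Which property of these arrays decides the counts was not tested.

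The partner genes that passed, 0 with all arrays, became 8 after pregnancy, 8 after hormones and 19 for the mean of both with array weights, and 2 after pregnancy with the lymph node covariate. Leaving out 1 array gave 0 to 14, 0 to 14 and 0 to 28.

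The labels do not say whether the replicate numbers pair the samples. With group means removed, same-numbered arrays had correlations of -0.25 to 0.38 over 9 pairs, and 4 of these were over 0.1. Tissue content differs between arrays too, so these correlations cannot settle it. With the replicate block the counts were 0, 0, 0 and 0, and the median of the 9 genes was -0.43 after pregnancy and -0.47 after hormones.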
